A study of Homo sapiens with 17 samples.

Results

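Androgen-independent and androgen-responsive prostate cancer cells were compared by the RNA regions that an antibody against N6-methyladenosine (m6A) recovered from 22Rv1 and from LNCaP cells. 22Rv1 is a line from a prostate carcinoma xenograft that relapsed after castration, and LNCaP is a line from a lymph node metastasis that needs androgen for growth. Genes counted as members when the deposited region table of either line named them with an exon or an intron mark, with or without a promoter mark, and regions of the 2 tables counted as shared when they overlapped by at least 1 bp on the same chromosome. This gave 15585 genes of the 16876 named over the whole study. Of them, 997 were named in 22Rv1 only, 1288 in LNCaP only and 13300 in both lines. The tables held 77311 regions in 22Rv1 and 110260 in LNCaP, together 187571 of the 326944 regions of the study.

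N6-methyladenosine is placed on adenosines of nascent RNA by a complex of METTL3, METTL14, WTAP and further subunits, is removed by the demethylases FTO and ALKBH5, and is bound by reader proteins of the YTH family. In messenger RNA it lies mostly near stop codons, in long internal exons and in 3' untranslated regions, and it is known to affect splicing, decay and translation. In the prostate, androgen signalling drives the transcription of luminal secretory genes such as KLK3, which encodes prostate-specific antigen, and tumours that escape castration often regain that activity.

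The study pulled RNA down with the m6A antibody or with unspecific immunoglobulin G (IgG) and sequenced both. The 11 samples of the comparison were 2 m6A and 3 IgG pull-downs of 22Rv1 and 3 m6A and 3 IgG pull-downs of LNCaP, out of 17 samples. All came from unmodified (wild type) cells in serum-containing medium with vehicle, so no androgen treatment, drug treatment or engineered gene change separates the groups. Each disease state is represented by 1 cell line. No label was given for replicate 2 of the 22Rv1 m6A pull-down, and it is unknown if the 22Rv1 table drew on that sample. The tables hold 1 comparison per line with no value per sample, so every interval given covers counting error only and no difference between the lines has a replicate check.

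For each region the authors' tables give a log2 fold of 1 representative window and a p-value combined over the windows of the region. By a formula fitted to the deposited values, the fold was taken to subtract the log2 IgG rate 2 times. The m6A and IgG reads of the representative window were therefore rebuilt as whole numbers. An ordinary ratio of m6A over IgG was computed against depths that the same fit gave. These were 3.30 M m6A and 4.82 M IgG reads in 22Rv1 and 3.92 M m6A and 8.87 M IgG reads in LNCaP. Which pull-down is the numerator is not stated in the tables; the m6A pull-down is taken as the numerator throughout. Whole reads were found for 99.9% of the 22Rv1 regions and 97.5% of the LNCaP regions with a p-value above 0. Where the deposited p-value was 0, in 135 regions of 22Rv1 and 6737 of LNCaP, the reads given are the smallest that reach it. Such reads are written as "at least", and the ratio is a lower limit. A region was called m6A-higher when an exact two-sided binomial test passed an adjusted p of 0.05 over its table, which 56.4% of 22Rv1 regions and 39.4% of LNCaP regions did. The authors' own adjusted p passed 99.3% and 95.4%.

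In both tables luminal markers were named more fully than the short lists of basal, immune, mesenchymal or neuroendocrine markers. All 14 luminal markers, among them KLK2, KLK3, FOXA1 and KRT8, were named in both, 11 with an m6A-higher region in 22Rv1 and 12 in LNCaP, where all named genes had one in 91.2% and 90.3% of cases. Of 9 basal markers 1 was named in each line, and KRT5, KRT14 and TP63 were absent from both. Of 10 immune markers 3 were named in each line, with PTPRC absent. Of 13 mesenchymal or stromal markers 8 were named in 22Rv1 and 7 in LNCaP, and their summed rate over lead regions (for each gene the exon region, or else the intron region, with the lowest binomial p) was 34.7 reads per M (reads per M of the rebuilt depth) in 22Rv1 and 21.0 in LNCaP, against 93.5 and 102 for the luminal markers. Of 6 neuroendocrine markers 1 was named in 22Rv1 and 0 in LNCaP. Longer lists, given below, were less clear-cut. Of 17 basal genes 5 were named in both lines, 2 in 22Rv1 only and 1 in LNCaP only. For 22 neuroendocrine and plasticity genes these counts were 7, 5 and 2. Of 39 luminal androgen-responsive genes 28 were named in both lines and 5 in neither.

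The named genes were largely the same in both lines, while the regions within them overlapped less. The 13300 shared genes were 93.0% of the 14297 genes of the 22Rv1 table and 91.2% of the 14588 genes of the LNCaP table. Among them 11691, or 87.9%, had an m6A-higher region in both lines, 439 in 22Rv1 only and 499 in LNCaP only. For comparison, 91.2% of all genes in the 22Rv1 table and 90.3% of those in the LNCaP table had such a region. By regions, 61006 of the 22Rv1 table (78.9%) overlapped an LNCaP region, and 54962 of the LNCaP table (49.8%) overlapped a 22Rv1 region. With an overlap of at least 50% of both regions these shares were 45.4% and 31.8%.

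Regions found in 1 line were short, weakly covered and often intronic. The 16305 unshared 22Rv1 regions had a median width of 120 bp and a median of 1.23 reads per M in the representative window, and 33.5% of them lay in introns alone. The 55298 unshared LNCaP regions had a median width of 140 bp and 0.625 reads per M, and 53.3% lay in introns alone. The share called m6A-higher was 49.8% of unshared regions in 22Rv1 and 22.6% in LNCaP, whereas overlapping regions passed in 58.2% and 56.4% of cases.

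Overlap was higher in regions with more reads and in exons. By read rate it ran from 61.2% to 98.1% of the 22Rv1 regions and from 22.3% to 98.8% of the LNCaP regions over the bins shown in the plot of overlap. An LNCaP region was found for 86.7% of the exon regions and 64.0% of the intron regions of 22Rv1. A 22Rv1 region was found for 69.2% of the exon regions of LNCaP but for 20.8% of its intron regions, and for 33.0% of the intron regions at or above 0.739 reads per M. This rate is the 1st percentile of the 22Rv1 table, which lists few weaker regions, whereas the LNCaP table reaches down to 0.235 reads per M at its 1st percentile. When regions of both tables below it were left out, 1629 genes were named in 22Rv1 only and 764 in LNCaP only, so the order of the gene counts between the lines turned over. The shares of overlapping regions turned over too, to 62.6% in 22Rv1 and 69.2% in LNCaP.

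**Figure D1:**
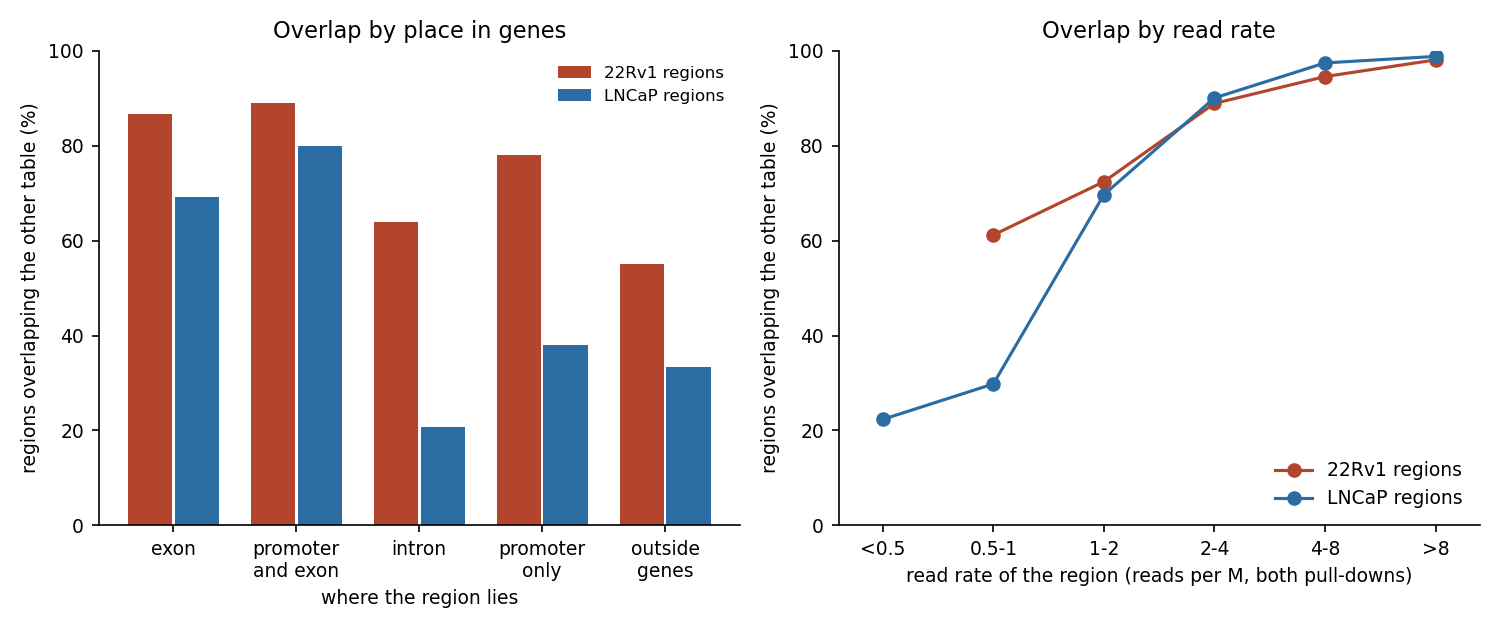
Percent of regions of each line that overlap a region of the other line, by place in genes (left panel) and by reads per M of both pull-downs in the representative window (right panel). The gap between 22Rv1 and LNCaP is widest in introns (64.0% and 20.8%) and closes in regions with more reads; the 22Rv1 bin under 0.5 reads per M holds too few regions to be drawn.

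The genes named in 22Rv1 only were mostly protein coding and few had many regions. Of the 997 genes, 846 (84.9%) were protein coding, 81 were long non-coding RNA genes and 20 were microRNA genes, and 472 (47.3%) had a single region. An m6A-higher region was present in 905 of them (90.8%), against 91.2% over the whole 22Rv1 table. In HPr1AR, an immortalised and non-malignant line of prostate epithelium, 524 of the 997 (52.6%) were also named.

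The 8 genes of the 22Rv1 list with the lowest binomial p, of 803 candidates, follow. PLXND1, a semaphorin receptor, had 88 m6A and 2 IgG reads in a promoter and exon region of 22Rv1 (chr3:129274051-129276050), a log2 ratio of 6.01 with a 95% interval of 4.11 to 9.08. PLA2G3, a secreted phospholipase, had 79 m6A and 0 IgG reads. Taking 3 reads in place of the 0, its log2 ratio was at least 5.27.

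SYK, a tyrosine kinase of immune receptor signalling, had 76 m6A and 1 IgG reads and a log2 ratio of 6.80. CX3CL1, the chemokine fractalkine, had 75 and 1 reads and a log2 ratio of 6.78. The others were ITPRIPL2, the pseudogene SIGLEC17P, and the long non-coding RNA genes MIR3667HG and NNT-AS1, with 71 to at least 81 m6A and 1 or 2 IgG reads. Of these 8 genes PLXND1, ITPRIPL2, SYK and NNT-AS1 were also named in HPr1AR.

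The genes named in LNCaP only held more non-coding genes. Of the 1288 genes, 943 (73.2%) were protein coding, 165 (12.8%) were long non-coding RNA genes, 45 were microRNA genes and 25 were small nucleolar RNA genes, of which the 22Rv1 list held 0. A single region was found in 632 (49.1%), and 983 (76.3%) had an m6A-higher region, against 90.3% over the whole LNCaP table. Only 713 (55.4%) had a region at or above the read rate that both tables reach, against 991 (99.4%) of the 22Rv1 list. HPr1AR also named 785 of the 1288 (60.9%).

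The 8 leading LNCaP genes, of 804 candidates, each had 58 to 60 m6A and 0 IgG reads. F10, coagulation factor X, had 60 m6A and 0 IgG reads in an exon region (chr13:113802831-113805470) and a log2 ratio of at least 5.50. GRPR, the gastrin-releasing peptide receptor, had 58 and 0 reads. The transcription factors SOX8 and FOXN4, the adaptor EFS, the pseudogene MKRN9P and the antisense transcript ATXN8OS had at least 58 m6A and 0 IgG reads. The ATXN8OS region also carries exon marks of KLHL1 on the opposite strand, and the reads of the pair cannot be told apart. The ranking stops at these values because stronger LNCaP regions have a deposited p-value of 0, which gives their smallest possible reads.

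Over all 15585 genes, 6.40% were named in 22Rv1 only and 8.26% in LNCaP only, and the list counts that follow are to be read beside these shares. Reads are those of the lead region. Among 18 prostate lineage factors, 16 were named in both lines and GATA3 and HNF4G in 22Rv1 only. GATA3, a luminal transcription factor, had 67 m6A and 14 IgG reads, and HNF4G, a nuclear receptor of the gut that some castration-resistant tumours express, had 19 and 0. Among 39 luminal androgen-responsive genes, 28 were named in both lines, HPGD in 22Rv1 only, and HERC3, TRPM8, ABCC4, PCA3 and MAF in LNCaP only. HPGD, which inactivates prostaglandins, had 10 m6A and 1 IgG reads in 22Rv1.

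In LNCaP, ABCC4, a drug and nucleotide exporter, had 59 m6A and 3 IgG reads, HERC3 had 41 and 4, and the cold-activated channel TRPM8 had 24 and 0. PCA3, a prostate cancer non-coding RNA, had 4 and 2 reads in its lead exon region in LNCaP, which was not called, and 1 of its 15 LNCaP regions was m6A-higher.

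Of 32 genes of androgen and steroid metabolism, 10 were named in both lines, 4 in 22Rv1 only and 3 in LNCaP only. AKR1C3, which makes testosterone from androstenedione, had an intron region with 12 m6A and 0 IgG reads in 22Rv1 only. UGT2B7 had 14 and 1 reads and UGT2B15 had 13 and 2 reads in 22Rv1 only. AKR1C1, a relative of AKR1C3, had 1 and 8 reads in 22Rv1 only. UGT2B17 had 25 and 5 reads and UGT2B28 had 12 and 0 reads in LNCaP only. The sulfotransferase gene SULT2B1 had 6 and 5 reads in LNCaP only. The AKR1C1 and SULT2B1 regions were not called m6A-higher, though each gene had another region that was. UGT2B15 and UGT2B17 conjugate androgens with glucuronic acid for removal. The UGT2B and AKR1C genes are close copies whose reads the authors' counting could split, so which paralog carried the reads is uncertain.

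Of 22 neuroendocrine and plasticity genes 7 were named in both lines, 5 in 22Rv1 only and 2 in LNCaP only, which was not tested against the shares over all genes. SRRM4, a neuronal splicing factor, had 42 m6A and 0 IgG reads in 22Rv1. The secretogranin gene SCG2 had 33 and 0, SOX2 had 11 and 0, MYCN had 8 and 0 and CHGA, encoding chromogranin A, had 9 and 0 in an intron. NCAM1, a neural adhesion molecule, had 17 and 0 reads in LNCaP only, and DLL3, a Notch ligand, had 4 and 7 reads there and was not called. The defining factors INSM1 and NEUROD1 and the vesicle protein gene SYP were named in neither line.

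Further genes named in 1 line came from basal, mesenchymal, growth factor and reader lists. Of 17 basal genes 5 were named in both lines, 2 in 22Rv1 only and 1 in LNCaP only. For 17 mesenchymal and stromal genes these counts were 7, 2 and 3, and for 40 growth factor genes 30, 2 and 3. CDH2, encoding N-cadherin, had 50 m6A and 6 IgG reads and CDH3, encoding P-cadherin, 75 and 3 in 22Rv1 only. NGFR had 15 and 0 reads and ACTA2 7 and 0 in 22Rv1 only. SNAI2, a repressor of epithelial genes, had 32 and 0 reads and its relative SNAI1 16 and 0 in LNCaP only. LAMA3 had 24 and 4 reads and PDGFRB 10 and 0 in LNCaP only. The hepatocyte growth factor receptor gene MET had 42 and 1 reads and BMP2 63 and 2 in 22Rv1 only. JAG1, a Notch ligand, had at least 61 m6A reads beside 11 IgG reads in LNCaP only. FGFR2 had 7 and 0 reads in LNCaP only, and FGFR4 had 5 and 2 there and was not called. Of 17 m6A readers and erasers, 14 were named in both lines and IGF2BP2 (38 and 1 reads) and IGF2BP1 (5 and 1 reads, not called) in 22Rv1 only. In such bulk RNA, less transcript per cell, less m6A per transcript and the depth of the line cannot be told apart for a gene that 1 table does not name.

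MicroRNA genes were among the members, since a region over a host transcript is also marked with the microRNA gene in it. With an entry among the RefSeq mature microRNAs (GRCh38.p14), 19 were named in 22Rv1 only and 39 in LNCaP only. Of these, 17 and 15 had an m6A-higher lead region. By a wider measure, an m6A-higher call in any region of the gene, 91.2% of all 22Rv1 genes and 90.3% of all LNCaP genes passed. Among all genes named in 1 line only, 90.8% in 22Rv1 and 76.3% in LNCaP passed by that measure. These shares are thus not like for like with the microRNA counts, which use the lead region alone. The regions of 16 of the 19 and 37 of the 39 also carried an exon or intron mark of a longer gene, so the reads need not come from the microRNA precursor. The mature sequences of the leading entries on each side are shown because they are the shortest genes that tell the lines apart by name. They are written 5' to 3', with the seed (bases 2 to 8), which pairs with target messages, in capitals. Those of 22Rv1 only were the following.
hsa-miR-4786-5p: uGAGACCAggacuggaugcacc
hsa-miR-1915-3p: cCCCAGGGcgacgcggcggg
hsa-miR-1224-5p: gUGAGGACucgggaggugg
Those of LNCaP only were the following.
hsa-miR-760: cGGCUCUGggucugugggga
hsa-miR-4489: uGGGGCUAgugaugcaggacg
hsa-miR-3939: uACGCGCAgaccacaggauguc
The 6 seeds shown all differed. MIR4786, MIR1915 and MIR1224 each have another mature arm that is not shown, and the region reads do not tell arms apart. MIR4786 had 57 m6A and 1 IgG reads in 22Rv1 (chr2:240881551-240882550) with no longer gene marked. MIR1915 had 59 and 5 reads and MIR1224 57 and 9 reads in 22Rv1, in regions that also held exons of MIR1915HG and of ALG3 and VWA5B2. In LNCaP, MIR760 had 57 and 0 reads, MIR4489 at least 59 beside 2, and MIR3939 38 and 0, in regions that also held exons of BCAR3, of SIPA1, and of CEP43 and CCR6. All of these longer genes were named in the other line too.

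One chromosome 21 transcript carried a known microRNA cluster in LNCaP alone. MIR99AHG, the host of miR-99a, let-7c and miR-125b-2, had 1 region in 22Rv1 and 208 in LNCaP, and 198 of the 208 were intron regions that no 22Rv1 region overlapped. These microRNAs, with 1 mature arm given for each, are shown because their genes were named in LNCaP only.
hsa-miR-99a-5p: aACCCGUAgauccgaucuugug
hsa-let-7c-5p: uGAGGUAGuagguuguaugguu
hsa-miR-125b-5p: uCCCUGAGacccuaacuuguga
Their regions were not called m6A-higher. MIR99A had 5 m6A and 16 IgG reads in LNCaP, MIRLET7C had 7 and 19, and MIR125B2 had 6 and 10. The LNCaP table thus listed this transcript in both pull-downs, with intron windows at a median of 4.5 m6A and 14 IgG reads. MIR99AHG and these 3 microRNAs were chosen after their values were seen.

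Each region was matched to the region of the other line with which it shared the largest overlap, if the choice was mutual, which gave 53092 pairs, 51204 of them with reads in both lines. Their median log2 ratio was 2.24 in 22Rv1 and 2.18 in LNCaP. The difference, 22Rv1 minus LNCaP, had a median of -0.03 with quartiles at -0.84 and 0.82, and 29791 pairs (58.2%) lay within 1 log2 unit. Both lines called 26837 pairs (52.4%) m6A-higher, 22Rv1 alone 4376 and LNCaP alone 3345. Across the pairs, the Spearman correlation between lines was 0.775 for the log2 ratio, 0.824 for the m6A rate and 0.701 for the IgG rate, as a description of pairs that share their library and depth within a line. A single region's ratio was imprecise, with a median width of the 95% interval of 4.03 log2 units in 22Rv1 and 3.87 in LNCaP.

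**Figure D2:**
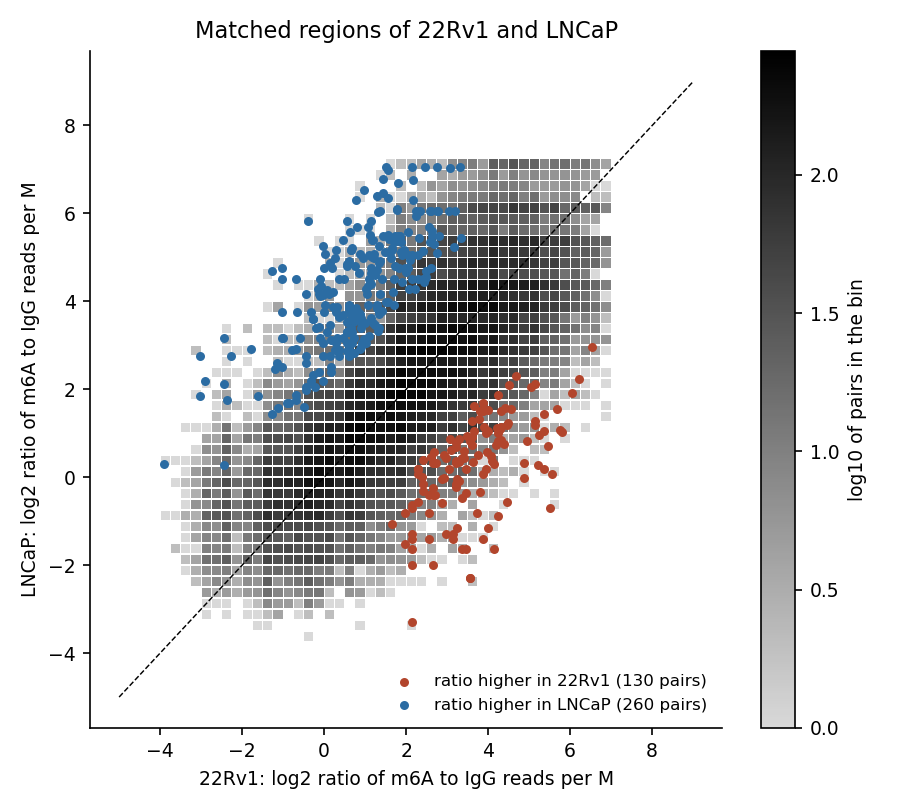
Log2 ratio of m6A over IgG reads in matched pairs of regions, with 22Rv1 on the horizontal and LNCaP on the vertical axis, where the shade of each square gives log10 of the number of pairs and the dashed line marks equal ratios. The cloud follows the dashed line, with 58.2% of pairs within 1 log2 unit, and the coloured points are the 130 pairs called higher in 22Rv1 and the 260 called higher in LNCaP.

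The 8 pairs with the highest lower limits in both lines were DYNC1LI1, GOLGB1, C2orf81, TMEM81, NASP, ZNF704, SYNJ2 and PGBD5. DYNC1LI1, a light intermediate chain of the dynein motor, had 80 m6A and 0 IgG reads in 22Rv1 and at least 58 and 0 in LNCaP. GOLGB1, a Golgi tether, had 77 and 0 in 22Rv1 and at least 58 and 0 in LNCaP. C2orf81 had 70 and 0 in 22Rv1 and 54 and 0 in LNCaP. At the other end, IgG-higher calls took 0.93% of the 22Rv1 regions and 0.139% of the LNCaP regions, and 12 pairs were IgG-higher in both lines. FOLH1, which encodes prostate-specific membrane antigen, was one, in a region marked as promoter and exon. It had 8 m6A and 28 IgG reads in 22Rv1 and 16 and 71 in LNCaP. The others included SDHB, FH, CYP51A1 and 2 small nucleolar RNA genes. Regions of RPL5 and SLC25A3 were also among them, and these carry promoter and exon marks of the small nucleolar RNA genes SNORA66 and SNORA53.

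A pair was called different when its log2 ratios were at least 2 apart and the 95% intervals did not overlap. By this rule 130 of the 51204 pairs (0.254%) were higher in 22Rv1 and 260 (0.508%) were higher in LNCaP. The share in the 22Rv1 direction was 33.3%. A ratio given as a lower limit has no upper limit, so the line that holds it cannot be called the lower one. This applied to 6490 pairs through LNCaP and 134 through 22Rv1, and it also bears on the list counts below. With whole reads in both lines (44708 pairs) the counts were 130 and 209. Among pairs that overlapped by at least 50% of both regions the counts were 88 and 151. Before the interval rule, 7007 pairs (13.7%) differed by 2 or more. The read levels differed between these groups. In the 130 pairs higher in 22Rv1, the median m6A rate was 6.97 reads per M in 22Rv1 and 3.83 in LNCaP, and the IgG rate 0.415 and 2.37. In the 260 pairs higher in LNCaP, the m6A rate was 6.22 in 22Rv1 and 8.54 in LNCaP, and the IgG rate 3.11 and 0.225. IgG was lower in LNCaP in all 260 of these, and lower in 22Rv1 in all but 5 of the 130. The IgG rate therefore moved with the call in nearly every pair, and its part in the result was not tested.

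**Figure D3:**
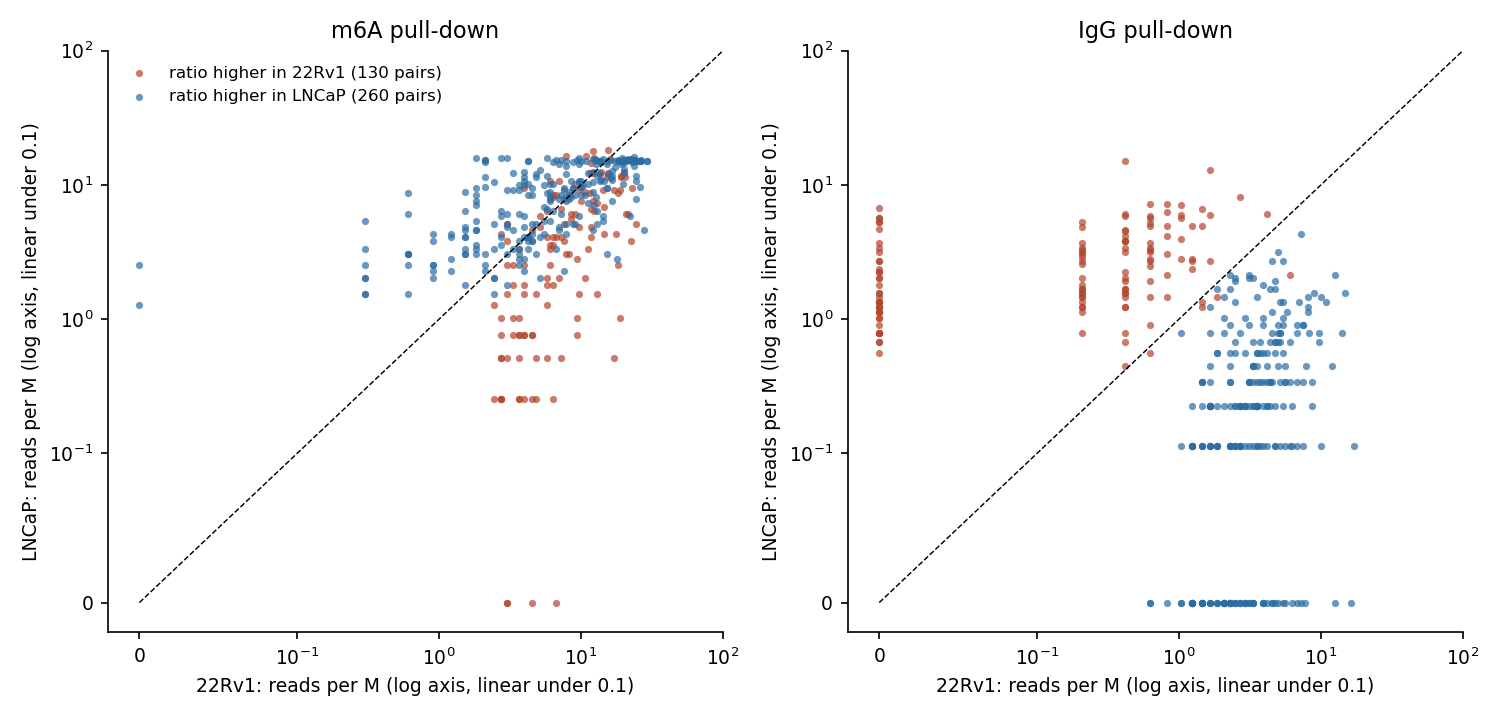
Rate of m6A reads (left panel) and of IgG reads (right panel), each as 22Rv1 against LNCaP in reads per M, for pairs called different, on log axes that are linear under 0.1. Pairs higher in 22Rv1 lie on the side of low 22Rv1 IgG (median 0.415 against 2.37 in LNCaP) and pairs higher in LNCaP on the side of low LNCaP IgG (median 3.11 in 22Rv1 against 0.225), and the m6A rates of both kinds lie nearer the dashed line of equal rates.

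The pairs that favoured 22Rv1 most were headed by RALA. RALA, a small GTPase of vesicle transport and Ras signalling, had 31 m6A and 1 IgG reads in 22Rv1 (chr7:39745731-39747700) and 3 and 11 in LNCaP. Its log2 ratio was 5.50 (2.92 to 10.8) in 22Rv1 and -0.70 (-3.18 to 1.22) in LNCaP, the largest called difference in this direction. MCM10, a replication initiation factor, had 12 and 1 reads in 22Rv1 and 1 and 7 in LNCaP.

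MED16, a subunit of the Mediator complex, had 32 and 1 reads in 22Rv1 and 6 and 13 in LNCaP. AKAP9, a scaffold for protein kinase A, had 56 and 2 reads in an intron region of 22Rv1 and 2 and 4 in LNCaP. NUP54, a nuclear pore protein, had 9 and 3 reads in 22Rv1 and 1 and 22 in LNCaP. PHRF1, UBN2, VPS39 and ERO1A were also among the 10, with differences of 5.12 to 5.83. The LNCaP log2 ratio of MED16 was 0.06 and that of AKAP9 was 0.18, and those of the other genes named here lay below 0.

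The pairs that favoured LNCaP most were headed by a histone gene. H4C4, which encodes histone H4, had 43 m6A and 83 IgG reads in 22Rv1 and 25 and 1 in LNCaP (chr6:26188941-26189340 in 22Rv1). Its log2 ratio was -0.40 (-0.97 to 0.15) in 22Rv1 and 5.82 (3.21 to 11.2) in LNCaP, a difference of -6.22. TBCD, a tubulin folding cofactor, had 2 and 7 reads in 22Rv1 and 34 and 0 in LNCaP, a difference of -5.94 or further from 0. WNK2, a kinase, had 8 and 6 reads in 22Rv1 and 41 and 1 in LNCaP.

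SSU72, a phosphatase of RNA polymerase II, had 27 and 23 reads in 22Rv1 and 35 and 1 in LNCaP. SLC25A38, a mitochondrial glycine carrier, had 1 and 12 reads in 22Rv1 and 6 and 2 in LNCaP. KCTD15, ZKSCAN7 and STX3 were also among the 10, with differences of -5.80 to -5.30. All 10 had 0 to 2 IgG reads in LNCaP.

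**Figure D4:**
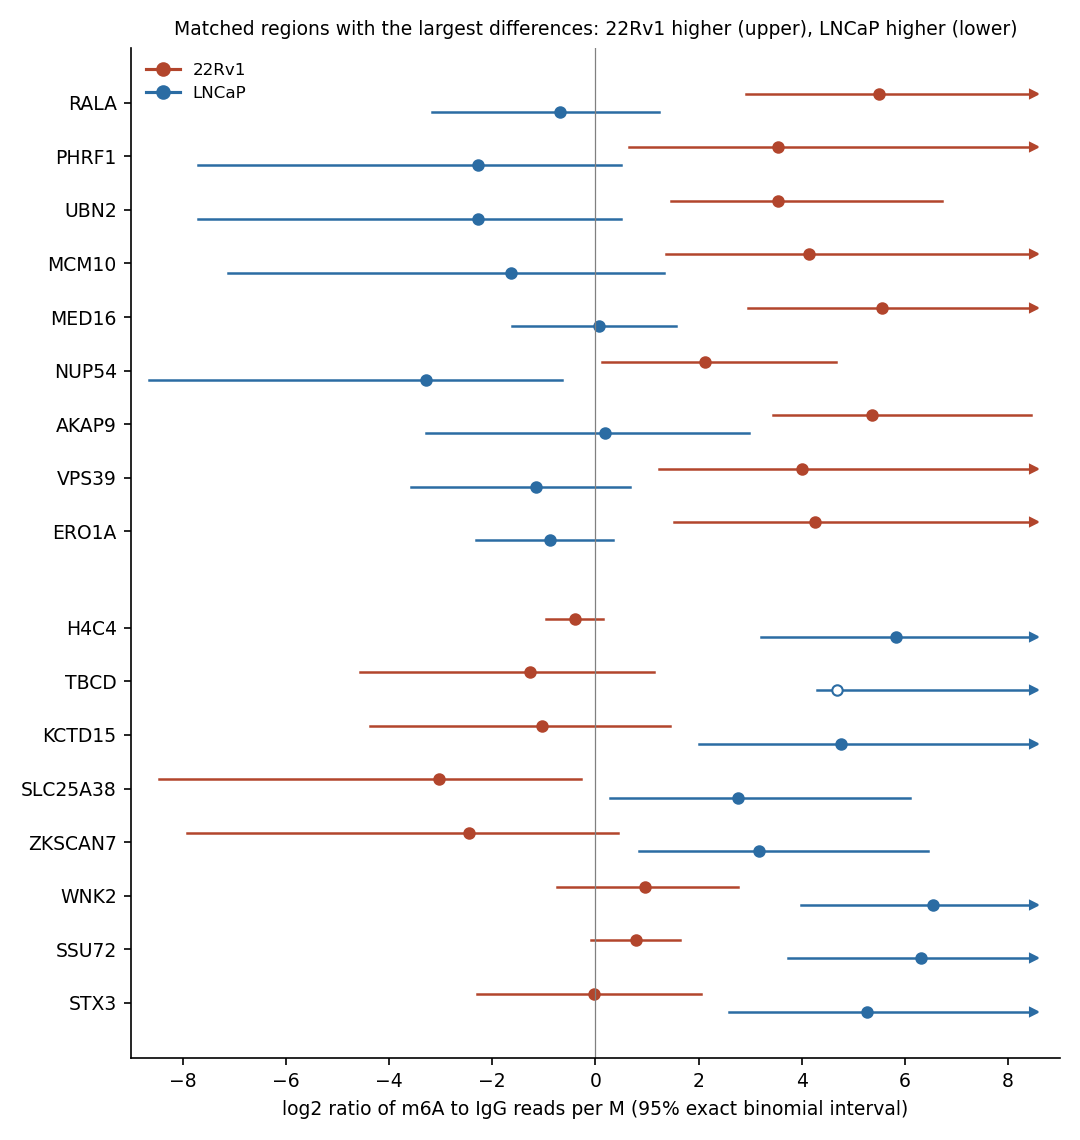
Log2 ratio of m6A over IgG reads with its 95% exact binomial interval in 22Rv1 and LNCaP for genes among the 10 pairs most in favour of each line. In each gene the intervals of the lines do not overlap; an open point marks 0 IgG reads set to a floor of 3, and an arrow marks an interval that runs past the axis or has no upper limit.

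The places of called pairs differed by direction. Regions at a promoter and exon made up 22.1% of all pairs, 39 of the 130 higher in 22Rv1 and 137 of the 260 higher in LNCaP (52.7%). Regions in exons alone made up 53.6% of all pairs, 53.1% (69) of those higher in 22Rv1 and 42.7% (111) of those higher in LNCaP.

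Some genes held several called pairs, and these pairs share a transcript. TNFRSF21, a death receptor, had 3 of 6 pairs higher in LNCaP. Its reads were 65 m6A and 29 IgG, 54 and 20, and 47 and 27 in 22Rv1, and at least 60 and 6, at least 60 and 5, and 23 and 4 in LNCaP. HNRNPAB, an RNA-binding protein, and the histone gene H4C14 had 2 of 2 pairs higher in LNCaP. LRIG1, a negative regulator of receptor tyrosine kinases, had 2 of 11 pairs higher in 22Rv1, with 45 and 1 and 9 and 0 reads in 22Rv1 and 47 and 28 and 3 and 11 in LNCaP. SMPD4, TRIM14 and RNPEP also had 2 pairs higher in 22Rv1. EPHX1, MACROH2A1 and NCAPG had 1 pair in each direction, so a gene was not always called to 1 side.

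Genes of androgen signalling were in both tables with similar ratios. All 21 genes of the list of androgen signalling and coregulator genes were named in both lines, all with an m6A-higher region in both. Of their 175 exon pairs 0 were called in either direction, against 0.278% of all exon pairs higher in 22Rv1 and 0.639% higher in LNCaP, and the median difference was 0.10, or -0.15 over the 138 pairs with whole reads in both lines. NCOA3, a coactivator of nuclear receptors, had 24 m6A and 6 IgG reads in 22Rv1 and 17 and 1 in LNCaP, a difference of -2.72. EP300, a histone acetyltransferase, had 5 and 4 reads in 22Rv1 and 1 and 8 in LNCaP.

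Luminal androgen-responsive genes gave differences in both directions. Their 87 exon pairs had a median difference of 0.23, or -0.22 over the 51 pairs with whole reads in both lines, beside -0.05 over all such exon pairs, so the sign depended on the regions given as lower limits. Called pairs were 0 higher in 22Rv1 and 1 higher in LNCaP. KLK3 had 44 m6A and 3 IgG reads in 22Rv1 and at least 75 beside 135 in LNCaP, where its call was undetermined. TMPRSS2, a membrane protease, had 23 and 1 reads in 22Rv1 and 32 and 15 in LNCaP. KLK3 and TMPRSS2 were chosen after their values were seen.

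AZGP1, a secreted lipid-mobilizing protein, had 13 and 1 reads in 22Rv1 and 30 and 20 in LNCaP, a difference of 2.48, and STEAP1, a membrane oxidoreductase, had 32 and 4 reads in 22Rv1 and 57 and 46 in LNCaP, a difference of 2.06. Both were m6A-higher in each line, and neither difference was called.

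The lineage factors had 41 exon pairs with a median difference of 0.49, and 0.34 over those with whole reads. XBP1, a transcription factor of the unfolded protein response, was the 1 called pair, with 38 m6A and 3 IgG reads in 22Rv1 and 48 and 50 in LNCaP, a difference of 3.09. More than 1 pair of reads met the LNCaP values of XBP1, and those nearest to the deposited fold are given. FOXA1, a pioneer transcription factor, had 66 and 6 reads in 22Rv1 and at least 68 beside 61 in LNCaP, and was chosen after its values were seen. ONECUT2, a driver of castration-resistant lineages, had 55 and 1 reads in 22Rv1 and 29 and 4 in LNCaP, a difference of 2.29 that was not called.

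The m6A writers were named in both lines. All 12 writer genes were in both tables, with 51 exon pairs, a median difference of 0.07 and 0 called pairs. METTL3, the catalytic subunit, had 3 pairs, all m6A-higher in both lines, with differences of -1.13 to 0.95. METTL14, its RNA-binding partner, had 3 pairs with differences of -1.05 to 2.18, and the largest came from 7 m6A and 1 IgG reads in 22Rv1 and 6 and 6 in LNCaP. VIRMA, a scaffold of the complex, had 7 and 2 reads in 22Rv1 and 2 and 8 in LNCaP, a difference of 3.18 that was not called.

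Among the readers and erasers, EIF3A, a translation initiation subunit that binds m6A, was the 1 called pair of 60. It had 16 and 10 reads in 22Rv1 and 45 and 0 in LNCaP, a difference of -3.86 or further from 0. YTHDF1, a cytoplasmic reader, had 17 and 1 reads in 22Rv1 and 14 and 13 in LNCaP, a difference of 3.35 that was not called. The demethylase gene ALKBH5, chosen after its values were seen, was m6A-higher in its lead region in both lines, with 88 and 27 reads in 22Rv1 and 50 and 29 in LNCaP.

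Retinoid pathway genes, which include the nuclear receptors for retinoic acid, gave 52 exon pairs with a median difference of -0.11. Over the 39 pairs with whole reads in both lines it was -0.40. NR2F1, an orphan receptor that responds to retinoic acid, was the 1 called pair and higher in LNCaP, with 55 m6A and 15 IgG reads in 22Rv1 and 30 and 0 in LNCaP. RARG, the gamma receptor of retinoic acid, had 6 regions in 22Rv1 and 5 in LNCaP. Its 4 pairs differed by -1.22 to 1.40, 1 of them was m6A-higher in both lines and 0 were called. CRABP2, which carries retinoic acid to its receptor, was named in 22Rv1 only with 8 and 1 reads. ALDH1A1 was named in 22Rv1 only too, with 3 and 15 reads, and 0 of its 10 regions were m6A-higher. ALDH1A2, which makes retinoic acid, was named in LNCaP only with 13 and 1 reads in an intron.

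The remaining lists are given beside the 0.278% of all exon pairs called higher in 22Rv1 and the 0.639% called higher in LNCaP. The 28 shared tumour suppressor and cell cycle genes had 135 exon pairs, a median difference of 0.11 and 0 called pairs. KMT2C, a histone methyltransferase, had 15 m6A and 4 IgG reads in 22Rv1 and 5 and 15 in LNCaP, a difference of 2.86 that was not called. The neuroendocrine and plasticity list had 25 pairs and 1 call. This was PEG10, a retrotransposon-derived gene expressed in castration-resistant tumours, with 81 and 61 reads in 22Rv1 and 42 and 0 in LNCaP, a difference of -4.03 or further from 0. POU3F2, a neural transcription factor, had 76 and 0 reads in 22Rv1 and 8 and 0 in LNCaP, and with both IgG counts at 0 no difference is given.

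The growth factor list had 128 pairs, a median difference of 0.33, 0 calls higher in 22Rv1 and 1 higher in LNCaP. Over its 108 pairs with whole reads in both lines the median was 0.17. Basal genes had 26 pairs with a median difference of 0.79, mesenchymal genes 23 pairs with -0.52 and androgen and steroid metabolism 27 pairs with -0.31, all without a call. The immune list gave 3 pairs with a median difference of -0.02, or 0.27 over the 2 with whole reads in both lines, and no call.

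Cytosolic ribosomal protein genes, whose short messages are known to carry little m6A, had low ratios in both lines. Their 131 exon pairs had a median log2 ratio of 0.12 in 22Rv1 and 0.43 in LNCaP, where all exon pairs had 1.96 and 1.90, and 1 pair was called in each direction. RPL7A was the call higher in LNCaP, with 14 m6A and 16 IgG reads in 22Rv1 and 33 and 6 in LNCaP. Both regions also carry an exon mark of SURF1 on the opposite strand, and they overlap by 1610 bp. The LNCaP region carries further marks of MED22 and of small nucleolar RNA genes. It also overlaps another 22Rv1 region of RPL7A (chr9:136214531-136215610), which had 24 and 7 reads and was m6A-higher. Pseudogene copies of RPL7A make the count uncertain.

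Zinc finger genes of the ZNF family stood at the other end. Of 500 genes 463 were named in both lines, and their 1063 exon pairs had a median log2 ratio of 3.87 in 22Rv1 and 3.79 in LNCaP, with 0 calls higher in 22Rv1 and 3 higher in LNCaP. ZNF280D, 1 of the 3, had 14 and 13 reads in 22Rv1 and 16 and 1 in LNCaP. That region also carries promoter and exon marks of TCF12 and LOC145783, so the reads cannot be assigned to ZNF280D alone. Because ZNF genes are close copies of each other, reads may be split between them.

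Small nucleolar and Cajal body RNA genes, most of them inside introns of host genes, had 191 of 225 members in both lines, 0 in 22Rv1 only and 28 in LNCaP only, where all genes gave 6.40% and 8.26%. Of the 27 with reads in their lead region, 7 lay below the read rate that both tables reach, and 5 had an m6A-higher region. Their 121 exon pairs had a median log2 ratio of -0.13 in 22Rv1 and 0.12 in LNCaP, and 4 were called higher in LNCaP. SNORD116-13, of the imprinted cluster on chromosome 15, had 1 m6A and 8 IgG reads in 22Rv1 and 21 and 11 in LNCaP, and further SNORD116 copies were named in LNCaP only. The region of SNORD88C had 46 and 30 reads in 22Rv1 and 43 and 0 in LNCaP, and also carries promoter and exon marks of C19orf48, so the reads may be of the longer gene. The SNORD116 copies are near-identical, so single copies are uncertain.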

How the data were processed

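RNA from m6A and IgG pull-downs of 22Rv1 and LNCaP cells was sequenced, and samples were grouped by line and antibody from their titles. The order of names in the sample descriptions conflicts with the titles, and this was not resolved. Each line has 1 table that the authors deposited, listing clusters of windows with a p-value, an adjusted p-value, a log2 fold and window counts, per the file headers. For the aligner, window counter and test, names are not given in the sources here. Samples could not be tied to columns, since none is specific to a sample, and the labels say that cells were grown in replicate cultures. The submitters' processing notes name hg38, but only 13.5% of gene and region pairs in 22Rv1 and 14.6% in LNCaP touched the gene's span in GRCh38, so coordinates are as deposited, their build is not settled, and no genome sequence was read by position.

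Reads were rebuilt from the deposited log2 fold, taken as log2 m6A rate minus 2 times log2 IgG rate. The -log10 p-value predicted from the reads also had to fall within a range. That range ran from the deposited value to this value plus log10 of the window count, with about 5% slack at each end. The prediction used a scale fitted to the same values. Regions with a high p-value were given 0 m6A reads where the fold allowed it, without this check. No pair of reads was found for 53 regions of 22Rv1 and 2613 of LNCaP, which entered no read ratio. The depths come from the same fit, 8.12 M reads in 22Rv1 and 12.8 M in LNCaP over both pull-downs, and were not checked against sequenced reads. The steps were tried on data simulated from the same fitted formula and depths with binomial reads. Such data cannot test the formula itself and hold no spread between replicates. Ratios carry 95% Clopper-Pearson intervals, with a floor of 3 reads per pull-down for a count of 0. Reads of a region come from its representative window, which may lie at different places in the lines. PCR duplicates and the authors' choice of window are not in these intervals. The main tests were exact binomial with Benjamini-Hochberg adjustment at 0.05 within a table. Differences between lines have no p-value, only the rule of 2 log2 units with separate intervals.

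Named genes followed a rule: the 8 genes per table with the lowest adjusted p in regions without a gene of the other table, the 10 largest called differences per direction, the 8 strongest shared pairs, RARG, METTL3, METTL14 and up to 4 list members with the largest exon-pair differences. Members of a list named in 1 table were added. The members, the 16 gene lists and the read ratio were chosen with earlier results of these data known. A RefSeq name was matched for 15456 genes (99.2%). Alternatives were the minimum overlap, stricter thresholds, exon marks, a shared read rate, equal list lengths, unique counts, centring and the floor. Genes on chromosome Y were not named, and some genes that the rule selects are not reported here. Python 3.11.15, pandas 2.3.3, NumPy 2.4.6, SciPy 1.17.1, bedtools 2.31.1 and matplotlib 3.10.9 were used.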

Additional observations from a re-analysis of the deposited data

Results flagged for a closer look

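In 5 pairs of regions the 22Rv1 and LNCaP signals pointed in opposite directions, each past the adjusted binomial threshold within its own table; the difference itself was not tested, and all 5 rest on few reads. NUP54, a nuclear pore protein, had 9 m6A and 3 IgG reads in 22Rv1 and 1 and 22 in LNCaP, a log2 difference of 5.41. The other 4 were IgG-higher in 22Rv1 and m6A-higher in LNCaP. SLC25A38, a mitochondrial carrier, had 1 m6A and 12 IgG reads in 22Rv1 and 6 and 2 in LNCaP, a difference of -5.80. UTP4, of ribosome biogenesis, had 2 and 14 in 22Rv1 and 6 and 2 in LNCaP, a difference of -5.02. IPO9, a nuclear import receptor, had 2 and 15 in 22Rv1 and 12 and 8 in LNCaP in an intron, a difference of -4.12. SESN3, a stress-induced inhibitor of growth signalling, had 0 and 8 in 22Rv1 and 10 and 7 in LNCaP, a difference of -2.56 or further from 0, since its 22Rv1 m6A count of 0 was set to 3 reads.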

How the results depend on the processing

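The counts of genes in 1 line, the shares of overlapping regions and 1 count of called pairs moved with the processing. At the shared read rate 1629 genes were in 22Rv1 only and 764 in LNCaP only, the overlapping regions were 62.6% in 22Rv1 and 69.2% in LNCaP, and 52.9% of LNCaP regions were m6A-higher. With equal list lengths the genes were 1408 and 887. Overlapping regions were 45.4% in 22Rv1 and 31.8% in LNCaP with a reciprocal overlap of 50%, 78.5% and 51.6% under the authors' adjusted p of 0.05, 69.7% and 64.0% among m6A-higher regions, and 87.1% and 71.3% among exon-marked regions. At an adjusted p of 0.01 m6A-higher regions were 48.7% in 22Rv1 and 32.8% in LNCaP. The reciprocal overlap left 88 called pairs higher in 22Rv1 and 151 in LNCaP. Under the other pair settings these counts ran from 113 to 149 and from 207 to 322, including 2 settings chosen after seeing the data. Centring shifted differences by 0.06 log2 and took the share of calls higher in 22Rv1 to 28.6%, beside 33.3%. The 20 differences named kept their sign and a size of at least 2 under centring and a floor of 1 read. MCM10 lost its call under centring. Its lower limit of 1.38 in 22Rv1 and upper limit of 1.33 in LNCaP lay closer together than the shift. The 20 differences were not rechecked under the reciprocal overlap of 50%. The overlap of their regions ran from 20 bp in KCTD15 to 1120 bp in RALA, with 30 bp in PHRF1 and 190 bp in TBCD. Where it is small, the representative windows may lie at different places in the lines. No paired analysis was possible because the tables hold no value per sample, and for the same reason no sample could be left out in turn. At a median interval width of about 4 log2 units, a pair that was not called is not shown to be alike in both lines.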

Other observations

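Most intron regions found in 1 line were spread over many genes, and the 10 leading genes held 15.5% of the 5467 in 22Rv1 and 8.07% of the 29372 in LNCaP. In 22Rv1, EPHA3, an ephrin receptor, had 158 intron regions that no LNCaP region overlapped, with 170 regions in 22Rv1 and 2 in LNCaP in all. ROBO1, the axon guidance receptor, had 139 such regions, AFF3 98, EPHA6 87, GUCY1A2, a subunit of soluble guanylate cyclase, 86, and NLGN1, a synaptic adhesion molecule, 61. EPHA3, ROBO1, EPHA6, NLGN1 and KCNMB2 lie on chromosome 3, where 31.6% of 22Rv1 regions were unshared, the highest share of any chromosome listed. KCNMB2, a potassium channel subunit, had the highest median log2 ratio of the 10 leading 22Rv1 genes, 2.32. It had 44 unshared intron regions, 27 of them m6A-higher, and a median of 8 m6A and 2 IgG reads. The name MIR4315-1 came close to it, with 20 of 41 such regions m6A-higher and a median of 6 and 2 reads. Its intron mark also stands on regions of distant chromosome 17 genes, such as NGFR and ITGA3. Counts under this name are therefore not counts for the microRNA gene. EPHA3 had a median of 3 m6A and 8 IgG reads, and 6 of its 158 regions were m6A-higher.

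In LNCaP the unshared intron regions were led by NAALADL2 with 347 (22 regions in 22Rv1 and 373 in LNCaP in all), FBXL17 with 335, ANK3, a membrane scaffold, with 289, NCAM2, a neural adhesion molecule, with 234 and IMMP2L with 212. Between 5 and 16 regions in each of these 5 genes were m6A-higher, with medians of 1 to 3 m6A and 8 or 9 IgG reads. The name MIR4315-1 was among the 10 on both sides and stood on 722 regions in 22Rv1 and 993 in LNCaP, other genes' regions included.

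Core histone genes were chosen after their values were seen. The 40 of them with an exon pair gave 35 pairs with a median difference of -1.17, of which 0 were called higher in 22Rv1 and 8 in LNCaP, beside 0.278% and 0.639% of all exon pairs. Beside H4C4 and H4C14, H2AC8 had 42 m6A and 68 IgG reads in 22Rv1 and at least 60 beside 7 in LNCaP, H3C3 had 50 and 78 in 22Rv1 and 12 and 0 in LNCaP, and H4C13 had 12 and 35 in 22Rv1 and 12 and 0 in LNCaP. H2BC18 had 20 and 26 in 22Rv1 and 31 and 8 in LNCaP, and H2BC6 had 25 and 33 in 22Rv1 and 9 and 0 in LNCaP. In all of them IgG reads outnumbered m6A reads in 22Rv1, where the IgG depth was also the larger. Histone genes are close copies of each other, so reads of single copies are uncertain.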
